A study of Homo sapiens with 8 samples.

Results

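Transcripts of 10 genes of cystine uptake and glutathione metabolism were followed by RNA sequencing in LNCaP, an established human prostate adenocarcinoma line. The genes were chosen by symbol and function, not by a threshold: SLC7A11 and SLC3A2 (cystine import), GCLC, GCLM and GSS (synthesis), GSR (recycling), GPX1 and GPX4 (use against peroxides), CHAC1 and GGT1 (breakdown). They were 10 of the 27140 genes in the table, and all 10 were among the 15289 with enough counts to be tested. The set was proposed with results of these libraries in view, among them the low CHAC1 of the knockdown and its higher level in the mutant rescue than in the wild-type rescue. Differences between lines in these 10 genes are therefore given as descriptions with a standard error and without a p-value.

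The 8 libraries came from 4 stable lines with 2 libraries each. All lines were made by lentiviral transduction and kept in 1 µg/ml puromycin. The mutant rescue (shMETTL3_MT) carried hairpins against METTL3, the enzyme that writes m6A into messenger RNA, together with a catalytically dead METTL3 that resists them. The wild-type rescue (shMETTL3_WT) carried the hairpins with a resistant wild-type METTL3, the knockdown (shMETTL3_vector) the hairpins with a vector, and the control (shCtrl_vector) control hairpins with a vector. The labels do not say what the vector holds, whether a line is 1 clone, or whether the 2 libraries of a line are separate cultures, so the errors and p-values below measure only the spread between libraries that may be technical repeats. The libraries held 15200343 to 17893241 counts. METTL3 averaged 333.7 CPM (counts relative to the TMM-scaled library total) in the mutant rescue, 317 in the wild-type rescue line, 28.8 in the knockdown and 68.4 in the control, and counts of the introduced and the cell's own gene cannot be told apart. Prostate luminal markers were present in all libraries (12 of 12, with KLK3 at 2600 CPM or more). They summed to 9110 to 9140 CPM in the mutant rescue, 9440 to 9500 in the wild-type rescue line, 9310 to 9360 in the knockdown and 11400 in both control libraries. Basal markers summed to at most 4.34 CPM, the fibroblast marker COL1A2 had 0 counts, and the leukocyte markers PTPRC and CD3E had at most 1 count in a library. The 4 leukocyte markers, nearly all CD68, summed to 20.8 to 22 CPM in the mutant rescue, 15.7 to 18.1 in the wild-type rescue line, 17.9 to 18.5 in the knockdown and 23.7 to 26.2 in the control, the control highest and the mutant rescue second as for SLC3A2 and GCLM below. The 4 endothelial markers, mostly VWF, summed to 5.79 to 10.9 CPM. The 6 fibroblast markers, nearly all COL1A1, summed to 99.4 to 105 CPM in the mutant rescue, 96 to 98.2 in the wild-type rescue line, 82.5 to 90.5 in the knockdown and 78.3 to 79.3 in the control. The part of these marker differences in the results below was not tested.

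Glutathione is a tripeptide of glutamate, cysteine and glycine and the main small thiol of the cell. Cysteine enters mostly as its oxidised dimer, cystine, through system xc-, in which SLC7A11 is the transporter and SLC3A2 the chaperone subunit that brings it to the membrane. Glutamate-cysteine ligase, made of the catalytic GCLC and the modifier GCLM, carries out the rate-limiting step, and GSS adds glycine. Glutathione peroxidases spend glutathione on hydrogen peroxide (GPX1) and on lipid peroxides (GPX4, the peroxidase that restrains ferroptosis), and GSR reduces the oxidised form again. CHAC1 cleaves glutathione inside the cell and is a known target of ATF4, the factor that answers amino acid shortage and endoplasmic reticulum stress. GGT1 cleaves it outside the cell. NRF2 (the product of NFE2L2) is known to drive SLC7A11, GCLC, GCLM and GSR through antioxidant response elements.

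RefSeq promoter sequences (build GRCh38.p14, 1 start per gene) were at hand for 7 of the 10 genes, not for SLC7A11, GSS and GSR. The 250 bases before each start were searched on both strands for TGATGNAAN, the element of ATF4 and its C/EBP partners, and for TGACNNNGC, the core of the antioxidant response element. The ATF4 element was found in 1 of the 7 promoters, that of CHAC1, and in 3.13% of all 35116 promoters of this length. The antioxidant core was found in 2 of the 7, those of SLC3A2 and GCLM, and in 10.9% of all promoters. These 3 promoters are shown 5′ to 3′ on the strand of the gene, with the match in capitals, because they are those that hold a match. The promoters of GCLC, GPX1, GPX4 and GGT1 held neither. CHAC1 lies on the plus strand (chr15:40953221-40953470) with the match beginning 210 bases before the start, SLC3A2 on the plus strand (chr11:62881449-62881698) with the match at 37, and GCLM on the minus strand (chr1:93909431-93909680) with the match at 34. In CHAC1 and GCLM the match reads on the opposite strand, as TGATGCAAC and TGACTAAGC. The SLC3A2 match contains TGACTCA, which is also the AP-1 motif. A match describes letters in this window and is not evidence that a factor binds there.
CHAC1: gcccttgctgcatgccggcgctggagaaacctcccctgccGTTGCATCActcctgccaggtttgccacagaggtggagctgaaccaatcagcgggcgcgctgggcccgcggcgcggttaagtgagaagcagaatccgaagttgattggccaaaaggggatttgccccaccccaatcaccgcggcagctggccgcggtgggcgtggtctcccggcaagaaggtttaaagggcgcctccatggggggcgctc
SLC3A2: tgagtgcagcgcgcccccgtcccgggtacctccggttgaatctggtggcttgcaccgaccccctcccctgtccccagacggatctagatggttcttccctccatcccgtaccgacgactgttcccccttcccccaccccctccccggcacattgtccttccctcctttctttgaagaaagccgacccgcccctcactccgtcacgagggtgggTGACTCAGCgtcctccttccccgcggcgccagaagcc
GCLM: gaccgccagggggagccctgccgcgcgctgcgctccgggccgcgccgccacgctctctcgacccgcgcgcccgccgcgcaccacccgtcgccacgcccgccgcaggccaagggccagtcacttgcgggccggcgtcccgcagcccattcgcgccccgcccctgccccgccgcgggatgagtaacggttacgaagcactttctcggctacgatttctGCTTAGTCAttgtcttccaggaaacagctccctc

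Levels between genes were compared as CPM per kilobase of the gene length in the table. GPX4 was the most abundant of the 10, at 182.7 to 233 CPM per kilobase over the 8 libraries. GPX1 (93.3 to 109.5) and GSR (93.2 to 106.8) followed and overlapped each other. GSS (43.7 to 50.3) and SLC3A2 (34.1 to 56.5) also overlapped. SLC7A11 (10.7 to 15.1), GGT1 (10.1 to 18.2) and GCLM (8.90 to 14.5) overlapped one another at a lower level. CHAC1 (2.47 to 8.96) and GCLC (5.14 to 6.22) were the lowest. The highest library exceeded the lowest by 3.62 times in CHAC1, by 1.80 in GGT1, 1.66 in SLC3A2 and 1.63 in GCLM, and by 1.15 in both GSR and GSS. The glutathione-cleaving enzyme CHAC1 thus varied most between libraries, and the enzymes of recycling and of the last step of synthesis varied least.

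**Figure D1:**
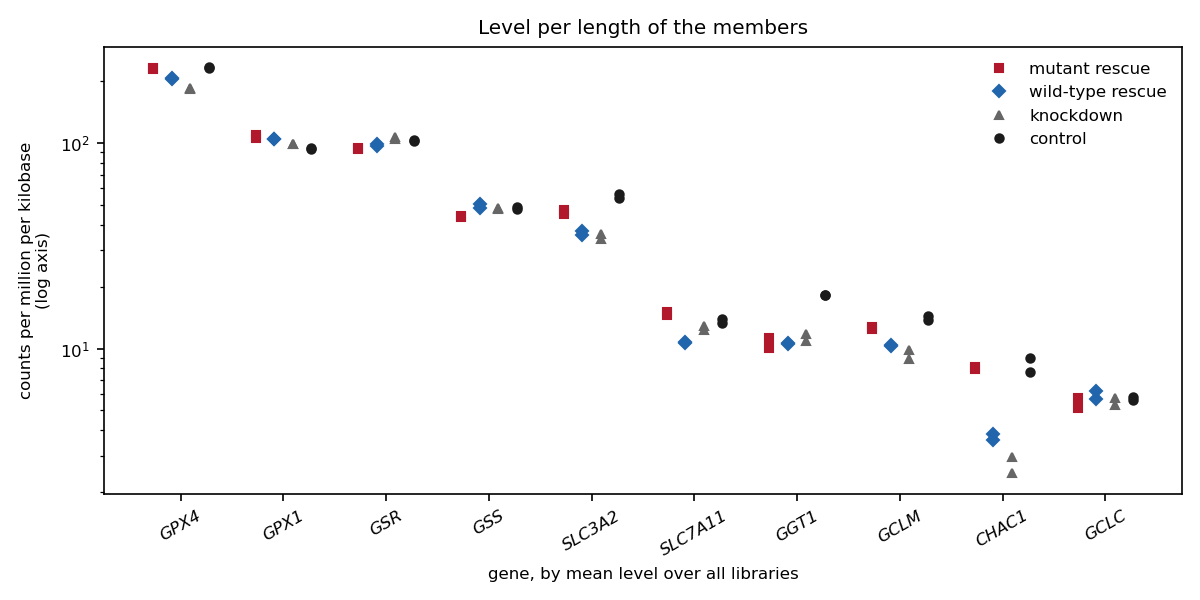
Level of each gene in CPM per kilobase (vertical log axis) for the 10 genes ordered by their mean, with 1 point per library and 4 groups of 2 libraries. GPX4 lies highest at 182.7 to 233, and CHAC1 spans the widest range as a ratio, 2.47 to 8.96.

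For cystine import, the transporter SLC7A11 was highest in the mutant rescue and lowest in the wild-type rescue. It stood at 145 and 141 CPM in the mutant rescue libraries, 104 and 103 in the wild-type rescue line, 125 and 119 in the knockdown, and 128 and 135 in the control. No 2 lines overlapped. The log2 fold change of the mutant over the wild-type rescue was 0.47 (SE 0.04, 1.39 times), that of the wild-type rescue over the knockdown -0.24 (SE 0.04), and that of the mutant rescue over the control 0.12 (SE 0.04). The knockdown differed from the control by -0.11 (SE 0.04), the smallest gap between lines for this gene. That call ended with DESeq2 (-0.10), without knockdown replicate 2 (-0.08) and without control replicate 2 (-0.05), and the call of the mutant rescue over the control ended without control replicate 1 (0.095). In bulk RNA a lower level in every cell and fewer cells with the transcript cannot be told apart.

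SLC3A2, the partner subunit, had another order. It stood at 136 and 131 CPM in the mutant rescue, 108 and 103 in the wild-type rescue line, 98.8 and 105 in the knockdown, and 164 and 156 in the control. The control was highest, the mutant rescue intermediate, and the libraries of the wild-type rescue and the knockdown overlapped. The knockdown was lower than the control by a log2 fold change of -0.65 (SE 0.04, 0.635 times). The mutant rescue was higher than the wild-type rescue by 0.34 (SE 0.04) and still lower than the control by -0.26 (SE 0.03). Between wild-type rescue and knockdown the difference was 0.05, with a 95% interval of -0.02 to 0.13. SLC3A2 also serves other amino acid transporters, LAT1 among them. Per kilobase, SLC3A2 exceeded SLC7A11 by 3.12 and 3.08 times in the mutant rescue, 3.47 and 3.34 in the wild-type rescue line, 2.64 and 2.92 in the knockdown, and 4.26 and 3.86 in the control.

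SLC7A11-AS1, a noncoding gene, overlaps SLC7A11 on the opposite strand in GENCODE 29 (GRCh38). It had 114 and 119 counts in the mutant rescue, 46 and 60 in the wild-type rescue line, 63 and 62 in the knockdown, and 25 and 23 in the control, against 1609 or more for SLC7A11. On the log2 scale it was 1.25 higher in the mutant than in the wild-type rescue (SE 0.17, edgeR adjusted p = 1.99e-10) and 1.30 higher in the knockdown than in the control (SE 0.24, edgeR adjusted p = 9.90e-07). Between wild-type rescue and knockdown the difference was -0.24 (SE 0.20, edgeR adjusted p = 0.412). The knockdown thus had more of the antisense transcript and slightly less SLC7A11 than the control, whereas both were highest in the mutant rescue. The library kit keeps strand, but the strand setting of the counting is not given in the sources used here, so reads of the 2 genes may not be told apart.

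In synthesis, the modifier subunit GCLM differed between lines while the catalytic subunit GCLC did not pass the threshold in any comparison. GCLM stood at 64 and 63 CPM in the mutant rescue, 51.7 and 52.4 in the wild-type rescue line, 49.7 and 44.9 in the knockdown, and 69.8 and 73.1 in the control. No 2 lines overlapped, and the order was that of SLC3A2. The knockdown was lower than the control by a log2 fold change of -0.59 (SE 0.05, 0.664 times), and the mutant rescue was higher than the wild-type rescue by 0.29 (SE 0.05, 1.22 times). The wild-type rescue over the knockdown (0.14, SE 0.05) lay at the threshold. It was not called, and stood at 0.07 without knockdown replicate 2. It was called with the length trend removed (0.18), without knockdown replicate 1 (0.21) and without mutant rescue replicate 2 (0.14). The call of the mutant rescue against the control (-0.17, SE 0.05) ended with DESeq2 (-0.17) and without control replicate 2 (-0.13).

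GCLC stood at 21.8 and 19.6 CPM in the mutant rescue, 23.7 and 21.5 in the wild-type rescue line, 20.3 and 21.9 in the knockdown, and 22 and 21.4 in the control, with every pair of lines overlapping. The 95% interval of its log2 fold change was -0.29 to 0.04 for the mutant over the wild-type rescue and -0.21 to 0.11 for the knockdown over the control, so that with 311 to 390 counts a library a change as large as that of GCLM on knockdown lay outside the second interval. The ratio of GCLM to GCLC, per kilobase, was 2.21 and 2.43 in the mutant rescue, 1.645 and 1.84 in the wild-type rescue line, 1.85 and 1.55 in the knockdown, and 2.39 and 2.575 in the control. The transcripts of the 2 subunits of the ligase thus stood in a lower ratio in the wild-type rescue and the knockdown than in the other two lines, without overlap.

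GSS, the last step of synthesis, was lowest in the mutant rescue. It stood at 131 and 132 CPM there, 144 and 151 in the wild-type rescue line, 142 and 145 in the knockdown, and 146 and 143 in the control. The mutant rescue lay below the other lines without overlap, which overlapped one another. Its log2 fold change was -0.16 (SE 0.03) over the wild-type rescue and -0.13 (SE 0.03) over the control. For the knockdown over the control the value was -0.01, with a 95% interval of -0.07 to 0.06.

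**Figure D2:**
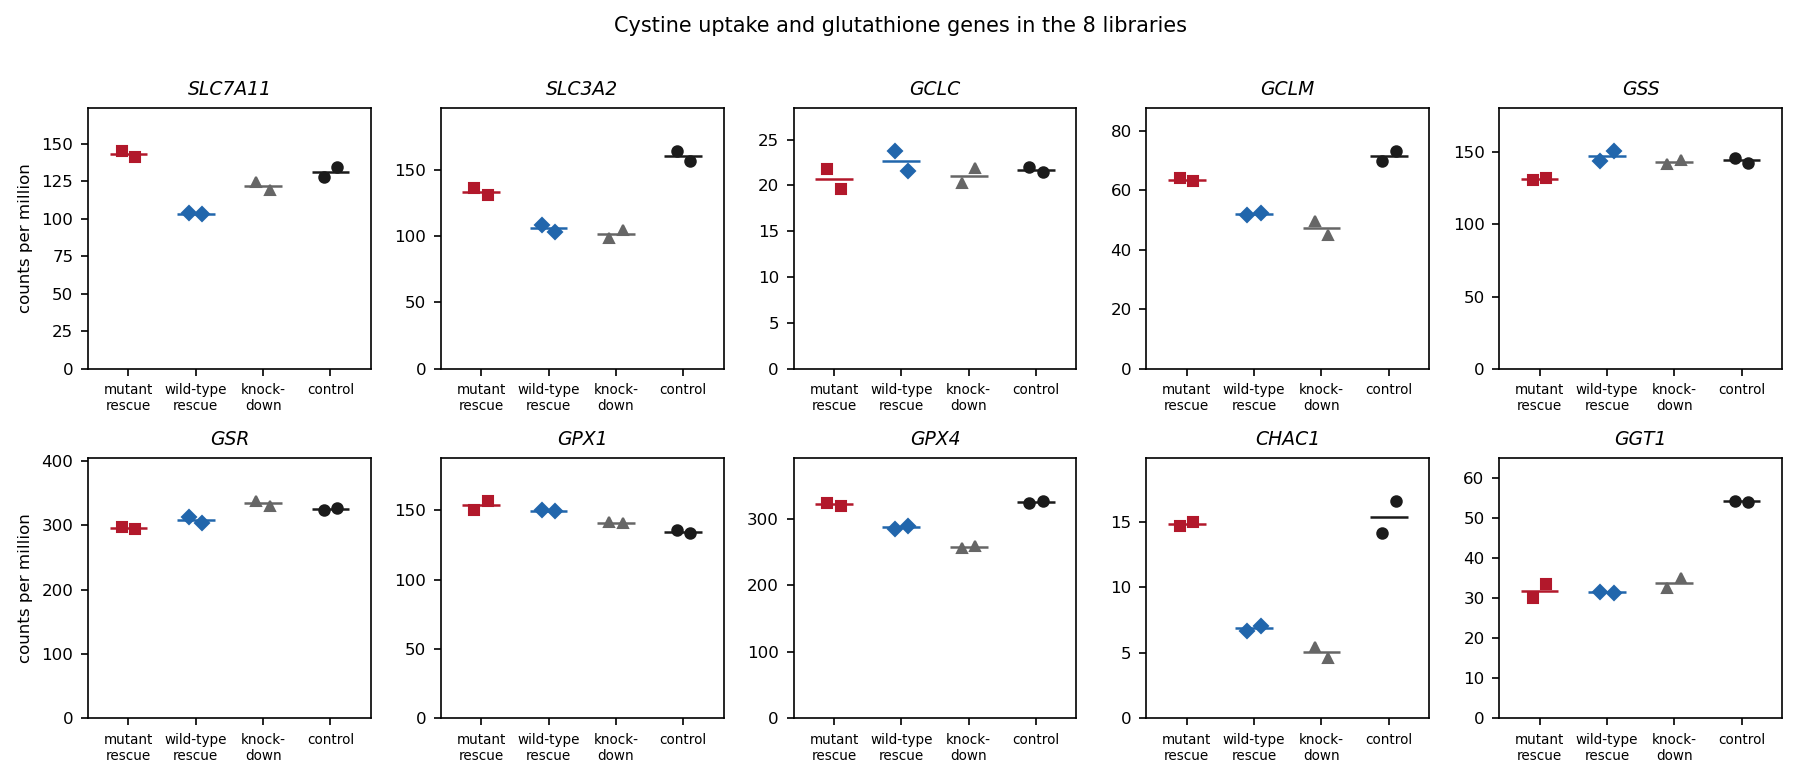
Level in CPM (vertical axes, from 0) of the 10 genes in the 8 libraries. Points are libraries and the short lines are the means of the 2 libraries of a group. CHAC1, GCLM, SLC3A2 and GPX4 are lower in the wild-type rescue and the knockdown than in the mutant rescue and the control, while GGT1 is lower in each of the 3 lines with the METTL3 hairpins than in the control.

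Of the recycling and use enzymes, GPX4 differed most between lines. It stood at 323 and 320.2 CPM in the mutant rescue, 285 and 289 in the wild-type rescue line, 256 and 260.0 in the knockdown, and 325 and 327 in the control. The knockdown was lowest and no 2 lines overlapped. The log2 fold change of the knockdown over the control was -0.34 (SE 0.02, 0.792 times), that of the wild-type rescue over the knockdown 0.16 (SE 0.03), and that of the mutant over the wild-type rescue 0.16 (SE 0.02). The mutant rescue and the control were not called different, with a value of -0.02 and a 95% interval of -0.07 to 0.03.

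GPX1 had an order of its own. It stood at 151 and 157 CPM in the mutant rescue, 149.9 and 149.6 in the wild-type rescue line, 141.3 and 140.6 in the knockdown, and 136 and 133 in the control. The control was lowest. The mutant rescue exceeded the control by a log2 fold change of 0.19 (SE 0.03) and the wild-type rescue exceeded it by 0.16 (SE 0.03), whereas the rescues were not called different (0.04, 95% interval -0.03 to 0.10). The call of the wild-type rescue over the knockdown (0.09, SE 0.03) ended with DESeq2, without the filter on low counts, with only these groups, with the length trend removed (0.01) and without any single library of the wild-type rescue, the knockdown or the control (0.08 to 0.09). That of the mutant rescue over the knockdown (0.12, SE 0.03) ended with the length trend removed (0.05).

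GSR, which returns oxidised glutathione to its reduced form, had small differences between lines. It stood at 297 and 294 CPM in the mutant rescue, 314 and 304 in the wild-type rescue line, 338 and 330.4 in the knockdown, and 324 and 327 in the control. The mutant rescue was lowest, at a log2 fold change of -0.18 (SE 0.02) over the knockdown and -0.14 (SE 0.02) over the control. The wild-type rescue lay between, at -0.11 (SE 0.02) over the knockdown. Its call over the control (-0.08, SE 0.02) ended with DESeq2 (-0.07), without wild-type rescue replicate 2 (-0.05) and without control replicate 2 (-0.06). The difference between the rescues (-0.06, SE 0.02) was called but lost that call with DESeq2, without the filter, and without either mutant rescue library, wild-type rescue replicate 1 or either control library (-0.07 to -0.04).

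Among the breakdown enzymes, CHAC1 had the largest differences of the 10 genes, and the set was proposed with its changes in view. It had 222 and 238 counts in the mutant rescue (14.7 and 15 CPM), 103 and 128 in the wild-type rescue (6.64 and 7.07 CPM), 97 and 72 in the knockdown (5.47 and 4.58 CPM), and 224 and 263 in the control (14.2 and 16.6 CPM). The mutant rescue overlapped the control, and both lay above the wild-type rescue and the knockdown without overlap. The log2 fold change was 1.11 (SE 0.12, 2.16 times) for the mutant over the wild-type rescue and -1.60 (SE 0.13, 0.329 times) for the knockdown over the control. It was 1.55 (SE 0.13) for the mutant rescue over the knockdown and -1.16 (SE 0.12) for the wild-type rescue over the control. For the mutant rescue over the control it was -0.05, with a 95% interval of -0.25 to 0.15, and 0.08 without control replicate 2. The wild-type rescue over the knockdown stood at 0.44 (SE 0.15). That call ended with DESeq2 (0.44), with the length trend removed (0.38), without wild-type rescue replicate 2 (0.39) and without knockdown replicate 2 (0.33). The promoter of CHAC1 is the one printed above that holds the letters of the ATF4 element.

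GGT1, which acts at the cell surface, separated the control from every line with the METTL3 hairpins. It stood at 30.1 and 33.5 CPM in the mutant rescue, 31.6 and 31.3 in the wild-type rescue line, 32.6 and 35.0 in the knockdown, and 54.2 and 54 in the control. The log2 fold change over the control was -0.77 (SE 0.06) in the mutant rescue, -0.78 (SE 0.06) in the wild-type rescue and -0.68 (SE 0.06) in the knockdown, and these 3 values share the control libraries. The mutant over the wild-type rescue gave 0.02, with a 95% interval of -0.11 to 0.15, and the wild-type rescue over the knockdown -0.10, with an interval of -0.23 to 0.03. GGT1 belongs to a family with near-identical copies, and the authors' counting could have split reads among them. The 4 pseudogenes and short copies listed (GGT3P, GGT8P, GGTLC1 and GGTLC2) had at most 9 counts in a library, against 455 to 858 for GGT1.

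The comparison of the mutant with the wild-type rescue sets side by side lines that differ by design in METTL3 catalysis. Each group is a single line, so catalysis and other differences between the lines cannot be told apart. The comparison of the knockdown with the control asks what goes with a METTL3 transcript at 28.8 against 68.4 CPM, with the same limit. The 2 comparisons share no library. In the rescues 5 of the 10 genes were called higher in the mutant (SLC7A11, SLC3A2, GCLM, GPX4 and CHAC1) and 2 lower (GSS and GSR), where a call is an edgeR adjusted p under 0.05 over all genes tested. Of all genes, 21.0% were called higher and 20.3% lower. The median log2 fold change was 0.10 over the 10 genes and 0.00 over all. On knockdown 6 were called lower (SLC7A11, SLC3A2, GCLM, GPX4, CHAC1 and GGT1), with 25.1% of all genes called lower. The median was -0.22 against -0.01. By edgeR 0 were called higher (22.9% of all genes), 1 was higher at an unadjusted p under 0.05, and DESeq2 also called 0 higher. GPX1 was called higher with only these groups (0.08). With the length trend removed GPX1 and GSR were called, which gave 2 higher and 6 lower. Of all genes 7269 were then called, against 7337 before. Each of the 5 genes called higher in the mutant rescue was among the 6 called lower on knockdown. The share of all genes called in both of these ways was not counted, and the opposite changes of CHAC1 were known when the set was proposed. These counts describe a set chosen with the results known, and nothing is read from them.

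**Figure D3:**
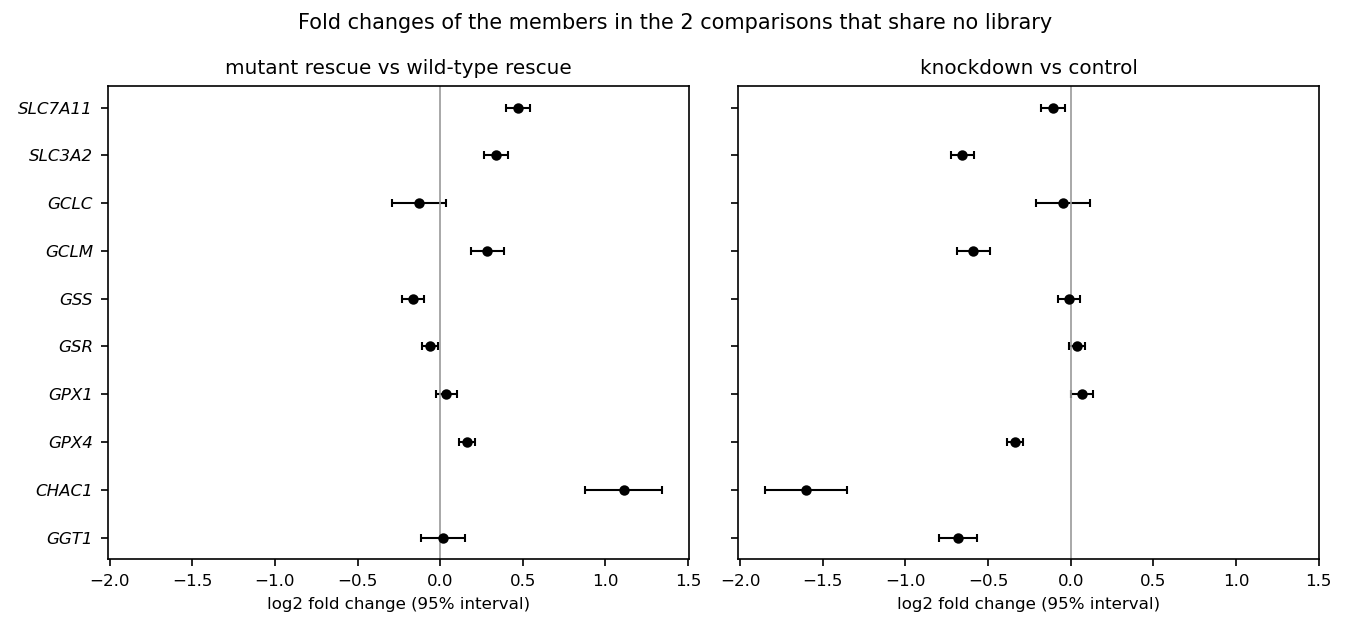
Log2 fold changes (horizontal axis, points) with 95% intervals (bars) for the 10 genes in the mutant over the wild-type rescue (left) and the knockdown over the control (right). CHAC1 lies farthest from 0 on both sides, at 1.11 and -1.60, and GCLC has an interval that includes 0 in both.

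The other 4 comparisons share libraries with these. The wild-type rescue over the knockdown compares METTL3 at 317 CPM, above the 68.4 of the control, with METTL3 at 28.8. In it 3 genes were called higher (GPX1, GPX4 and CHAC1) and 2 lower (SLC7A11 and GSR), with 10.8% and 13.2% of all genes. In the mutant rescue over the knockdown 6 were higher and 2 lower, with 25.9% and 25.8% of all genes. Over the control, the wild-type rescue had 1 higher (GPX1) and 7 lower, with 23.8% and 25.5% of all genes, and the mutant rescue had 2 higher (SLC7A11 and GPX1) and 5 lower, with 29.1% and 29.7%. The wild-type rescue stayed below the control in SLC7A11, SLC3A2, GCLM, GPX4, CHAC1 and GGT1. Across all tested genes, fold change fell with gene length in the wild-type rescue over the knockdown (Spearman rho -0.346) and in the mutant rescue over the knockdown (-0.179). It rose with length in the knockdown over the control (0.128), and rho lay between -0.065 and 0.012 in the remaining comparisons. These values describe a trend across genes, which are not independent replicates. The peroxidases GPX1 and GPX4 have the shortest listed gene lengths of the 10, at 1430 and 1403 bases. With the length trend removed, 2 of the 10 genes were called higher and 2 lower in the wild-type rescue over the knockdown. Of all 15289 genes 2623 were then called, against 3673 before.

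Over the 8 libraries, log2 CPM of CHAC1 correlated with GPX4 (Pearson r 0.97), GCLM (0.97) and SLC3A2 (0.90), and SLC3A2 with GCLM (0.95). SLC7A11 had an r of 0.70 with CHAC1 and -0.79 with GSS, and GSR had an r of -0.83 with GPX1. With 4 lines of 2 libraries these values mostly restate the group means, and they are given without a p. Among 11153 other genes averaging 5 CPM or more, the closest to CHAC1 were PDE9A (0.99), CNBP, NVL, SUN1 and TGIF1 (0.99 each). The closest to SLC7A11 were CASC3 (0.99), TECPR1 (0.97), STX6 (0.97), KLHL12 (0.97) and ARIH1 (0.97).

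Another 85 genes around glutathione were listed by role, and 72 had enough counts. In the mutant over the wild-type rescue 15 were called higher and 19 lower (median -0.04), and on knockdown 21 higher and 24 lower (median -0.01), beside the shares of all genes given above. In the wild-type rescue over the knockdown 12 were higher and 8 lower, or 3 and 6 with the length trend removed. In the mutant rescue over the knockdown 23 were higher and 18 lower, or 18 and 22 with that trend removed. Of all 15289 genes, 2623 and 7712 were called in these comparisons with the trend removed, against 3673 and 7909 before. Over the control the wild-type rescue had 21 higher and 22 lower, and the mutant rescue 22 and 23. All these lists were chosen with earlier results of these data known. Nothing is read from their counts, and the p-values of their genes carry that limit.

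The transcription factors and regulators of these genes were called higher in the mutant over the wild-type rescue in 8 of 10, where 21.0% of all genes were. On knockdown 1 of the 10 was higher and 5 lower, where 22.9% and 25.1% of all genes were. This list too was chosen with earlier results of these data known. Nothing is read from its counts, and the p-values of its genes carry the same limit. ATF4 averaged 242 CPM in the mutant rescue, 199 in the wild-type rescue line, 190.3 in the knockdown and 327 in the control, with the control highest and the mutant rescue second as in SLC3A2 and GCLM. Its log2 fold change was 0.28 in the mutant over the wild-type rescue (SE 0.03, edgeR adjusted p = 1.76e-17) and -0.78 in the knockdown over the control (SE 0.03, edgeR adjusted p = 1.73e-63), and in the mutant rescue it was still below the control (-0.44, SE 0.03, edgeR adjusted p = 6.85e-36). The stress factors that act beside or after ATF4 had larger fold changes between the rescues. ATF3 was higher in the mutant over the wild-type rescue by 0.94 (SE 0.04, edgeR adjusted p = 6.96e-47) and DDIT3, which encodes CHOP, by 0.91 (SE 0.06, edgeR adjusted p = 1.09e-32), and both also exceeded the control there, by 0.51 (SE 0.04) and 0.67 (SE 0.06). TRIB3, a target and inhibitor of this response, was higher by 0.59 (SE 0.05, edgeR adjusted p = 1.30e-21). On knockdown all 3 fell, ATF3 by 0.51, DDIT3 by 0.40 and TRIB3 by 0.64 on the log2 scale.

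The wild-type rescue and the knockdown were not called different in ATF4 (0.06, edgeR adjusted p = 0.0854), ATF3 (0.08, edgeR adjusted p = 0.249), DDIT3 (0.16, edgeR adjusted p = 0.0691) or TRIB3 (-0.07, edgeR adjusted p = 0.407). On the NRF2 side NFE2L2 averaged 93.4 CPM in the mutant rescue, 78.0 in the wild-type rescue line, 78.6 in the knockdown and 73.4 in the control. It was higher in the mutant over the wild-type rescue by 0.26 (SE 0.04, edgeR adjusted p = 1.70e-07), and its small MAF partners MAFG by 0.38 (SE 0.05) and MAFF by 0.59 (SE 0.12). KEAP1, which marks NRF2 for degradation, was the 1 factor called lower (-0.11, SE 0.05, edgeR adjusted p = 0.0478). That call ended with DESeq2, without the filter, with the length trend removed and without any single library of the rescues or the control (edgeR adjusted p 0.0514 to 0.237). TXNRD1, an NRF2 target of the parallel thioredoxin system, was higher in the mutant over the wild-type rescue by 0.20 (SE 0.02, edgeR adjusted p = 1.26e-17), and also on knockdown by 0.19 (SE 0.02, edgeR adjusted p = 3.15e-16). It was the 1 of 13 redox partners called higher between the rescues, and 6 were lower, where 21.0% and 20.3% of all genes were. Among these 6 were its relatives TXNRD2 (-0.18, SE 0.04, edgeR adjusted p = 6.35e-05) and TXNRD3 (-0.21, SE 0.08, edgeR adjusted p = 0.0344). The call of TXNRD3 ended with DESeq2, without the filter, and without mutant rescue replicate 1 (-0.10) or either wild-type rescue library (adjusted p 0.0568 to 0.453).

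**Figure D4:**
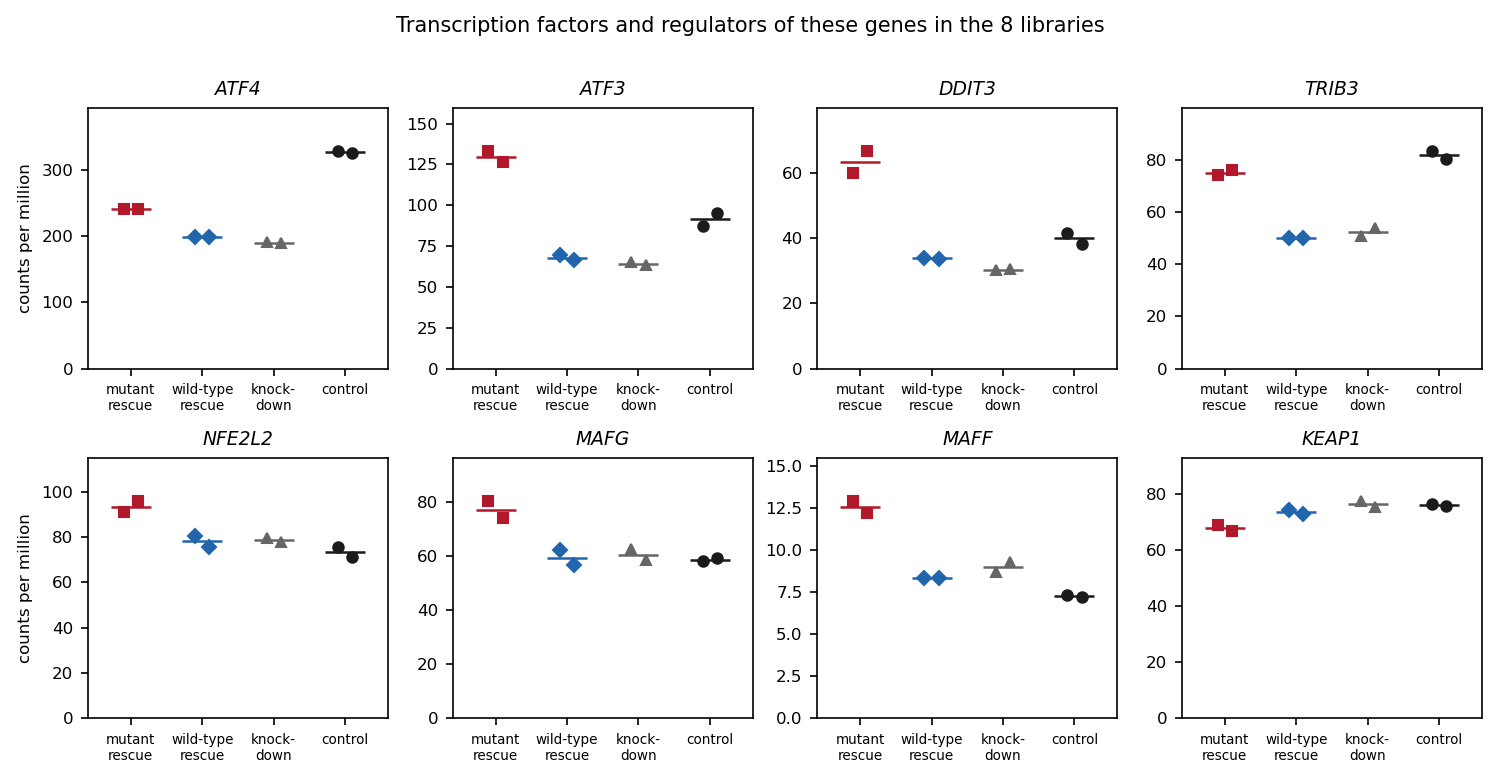
Level in CPM (vertical axes, from 0) of 8 regulators of these genes in the 8 libraries, with points for libraries and short lines for group means. ATF4 is highest in the control (327) and second in the mutant rescue (242), while ATF3, DDIT3, NFE2L2, MAFG and MAFF are highest in the mutant rescue.

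Of 12 tested genes of cysteine and methionine supply, 7 were called lower on knockdown and 2 higher, where 25.1% and 22.9% of all genes were. The lists here too were chosen with earlier results of these data known, and MAT2A was named after being seen. Nothing is read from their counts, and the p-values of their genes carry that limit. The neutral amino acid carriers SLC1A4 and SLC1A5 stood at log2 fold changes of -0.82 (SE 0.12) and -0.73 (SE 0.04), and MAT2A, which makes S-adenosylmethionine, the methyl donor METTL3 uses, at -0.61 (SE 0.03), with edgeR adjusted p = 4.76e-09, 1.05e-40 and 3.46e-37. In the mutant over the wild-type rescue 2 of the 12 were higher, SLC1A5 among them (0.19, SE 0.04, edgeR adjusted p = 3.63e-05), and 3 lower, where 21.0% and 20.3% of all genes were. The glutathione and drug exporter ABCC4 was lower on knockdown, at -0.76 (SE 0.02, edgeR adjusted p = 1.47e-67). SLC1A4 and SLC1A5 also stayed below the control with wild-type METTL3 added back, at -0.84 (SE 0.12) and -0.73 (SE 0.04). So did MAT2A, at -0.74 (SE 0.035), and ABCC4, at -0.91 (SE 0.02). Whether these differences follow the METTL3 level was not tested. Glutathione transferases were called higher on knockdown in 7 of 14 tested, where 22.9% of all genes were. GSTA4 was among them (0.58, SE 0.06, edgeR adjusted p = 7.19e-16). GSTO2, another transferase, stood at 0.42 (SE 0.15, edgeR adjusted p = 0.0137), a call lost with DESeq2 (adjusted p = 0.158), without knockdown replicate 2 (edgeR adjusted p = 0.0681) and without control replicate 1 (0.22, edgeR adjusted p = 0.341). The exporter ABCC5 was higher too (0.37, SE 0.04, edgeR adjusted p = 1.58e-15). The mitochondrial thioredoxin reductase TXNRD2 was also higher on knockdown (0.50, SE 0.04, edgeR adjusted p = 2.18e-23). The wild-type rescue likewise exceeded the control in TXNRD2 by 0.47 (SE 0.04) and in GSTA4 by 0.75 (SE 0.06). CHAC2, the constitutive relative of CHAC1, went the other way in the mutant over the wild-type rescue. It stood at -0.58 on the log2 scale (SE 0.17, edgeR adjusted p = 0.00354). The call ended with DESeq2 (adjusted p = 0.0711), without mutant rescue replicate 2 (edgeR adjusted p = 0.126) and without wild-type rescue replicate 1 (edgeR adjusted p = 0.101). The glutaredoxins GLRX2, which is mitochondrial, and GLRX3 were lower in the same comparison (-0.38, SE 0.10, edgeR adjusted p = 7.47e-04, and -0.30, SE 0.05, edgeR adjusted p = 8.10e-07). GSTA4, which was higher on knockdown, was lower there (-0.29, SE 0.06, edgeR adjusted p = 3.87e-06).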

How the data were processed

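Messenger RNA of LNCaP cells was sequenced in 8 libraries, placed in 4 groups of 2 by their titles. Per the labels' protocols, RNA was extracted with TRIzol and libraries were made with the KAPA stranded messenger RNA kit. CASAVA, STAR 2.5.2b, featureCounts, DESeq2 and the build hg19 are named per the submitters' processing notes, without parameters; the strand setting is not given in the sources used here. The deposited table holds the authors' raw counts per gene and, as a column of other kind, gene length in bases. Promoters are from RefSeq (GRCh38.p14), another build.

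Counts were filtered with filterByExpr (minimum count 10, total 15), scaled by TMM and fitted with edgeR 4.0.16 (limma 3.58.1, R 4.3.3) by a quasi-likelihood model over all 8 libraries with robust dispersion. Tests were two-sided with Benjamini-Hochberg adjustment over all 15289 genes, called under 0.05. The SE is the size of the log2 fold change over the root of its F statistic, and 95% intervals use its degrees of freedom. Totals of 15200343 to 17893241 counts set the counting error; no molecular identifiers are named in the sources used here. The SE also holds the spread between libraries. Between the 2 libraries of a line, counts varied beyond sampling noise (chi-square per degree of freedom 1.21 to 1.35). With 2 libraries against 2 no exact permutation test reaches 0.05.

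The members and lists were chosen with earlier results of these data known. The text names all 10 members, SLC7A11-AS1, METTL3, copies of GGT1, the 5 genes closest to CHAC1 and SLC7A11 in log2 CPM, and, for the mutant over the wild-type rescue and the knockdown over the control, the 4 most changed called genes in each direction among the other listed genes averaging 5 CPM or more. Values of ATF4, ATF3, DDIT3, TRIB3, NFE2L2, MAFG, KEAP1, TXNRD1, TXNRD2, TXNRD3, SLC1A5 and MAT2A where this rule does not name them were chosen after being seen. So were those of SLC1A4, ABCC4 and GSTA4 for the wild-type rescue over the control. Alternatives were DESeq2 1.42.0 size factors and its Wald test, no filter, only the groups compared, the replicate number as a block, a length trend removed by lowess (span 0.3), each library left out, and a minimum absolute log2 fold change of 0.5; for genes that are no members these were added after seeing the data. Only the main edgeR fit, in the knockdown over the control, was first tested on simulated data.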

Additional observations from a re-analysis of the deposited data

How the results depend on the processing

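Of 840 values of the 10 genes under alternatives other than the minimum fold, 790 kept direction and call, 31 lost the call, 7 gained it and 12 changed sign, none of these 12 called. The cause was not tested. With single libraries left out, log2 fold changes that crossed 0 ranged from -0.0645 to 0.0908 for GGT1 in the mutant over the wild-type rescue, -0.1016 to 0.0084 for GCLC and -0.0222 to 0.0199 for GSS on knockdown, -0.1021 to 0.0568 for GCLC in the mutant rescue over the knockdown, -0.0121 to 0.1261 for GCLC and -0.0044 to 0.0616 for GSS in the wild-type rescue over the control, and -0.1505 to 0.0067 for GCLC and -0.1498 to 0.0801 for CHAC1 in the mutant rescue over the control. GSS on knockdown also stood at 0.0282 with the length trend removed and 0.0024 with only the groups compared.

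Over all genes DESeq2 called 3749 against 6307 by edgeR in the mutant over the wild-type rescue, 4767 against 7337 on knockdown, 1705 against 3673 in the wild-type rescue over the knockdown and 4995 against 7531 in the wild-type rescue over the control. Counts of called members moved by over 1.5 times in the following cases, under DESeq2 only in the wild-type rescue over the knockdown. With an absolute log2 fold change of at least 0.5, 1 of 7 passed in the mutant over the wild-type rescue, 0 of 5 in the wild-type rescue over the knockdown, 1 of 8 in the mutant rescue over the knockdown, 3 of 8 in the wild-type rescue over the control and 1 of 7 in the mutant rescue over the control. In the wild-type rescue over the knockdown DESeq2 called 3, beside 1705 of all genes, and the count also moved with single libraries left out. Of the other glutathione genes, the minimum fold left 5 of 34, 10 of 45, 0 of 20, 7 of 41, 11 of 43 and 10 of 45 in the mutant over the wild-type rescue, the knockdown over the control, the wild-type rescue over the knockdown, the mutant rescue over the knockdown, and the wild-type and the mutant rescue over the control. How many of all called genes pass the minimum fold was not counted, so nothing about the members or the other glutathione genes is read from these counts. DESeq2 called 27 of 45 on knockdown. In the wild-type rescue over the knockdown DESeq2 called 8 of 20, removal of the length trend left 9, and leaving out 1 library gave 10 to 21.

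Same-numbered libraries did not deviate together (r of -0.04 to 0.04), so the numbers give no pairing. With the replicate block 7 members were called in the mutant over the wild-type rescue, 6 on knockdown and 6 in the wild-type rescue over the knockdown (GCLM added). It called 8 in the mutant rescue over the knockdown, and 8 and 7 in the wild-type and mutant rescue over the control. Of all 15289 genes 6340, 7369, 3717, 7930, 7563 and 9004 were then called, in the same order, and nothing is read from the member counts. The 560 values of named genes that are no members leave out the wild-type rescue over the control. Of these 560, 540 kept direction and call and 20 lost the call, those of KEAP1, CHAC2, GSTO2 and TXNRD3. These values and those of the members leave out the minimum fold, under which calls with a smaller fold end by construction, such as those of ATF4, NFE2L2, MAFG, TXNRD1 and GLRX3 between the rescues. Depth limits GCLC and CHAC1 most, with 72 to 390 counts a library.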
